A study of Mus musculus with 12 samples.

Results

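Genes that carry long-chain fatty acids into liver cells, bind them there or activate them were followed in the livers of female and male mice fed simvastatin, a statin that blocks cholesterol synthesis at HMG-CoA reductase. The 10 genes, given by name, were Cd36, the transporters Slc27a1, Slc27a2, Slc27a4 and Slc27a5, the binding proteins Fabp1, Fabp2 and Fabp4, and the acyl-CoA synthetases Acsl1 and Acsl5. Each matched 1 gene identifier of the deposited tables by its symbol, and 10 of 10 were among the 11968 genes of the count table, out of 26304 genes with a count in any liver. The mice were C57BL/6J, an inbred strain, and were between 8 and 10 weeks old when the diets began. Female chow and male chow livers came from mice on chow alone for 4 weeks. Female statin and male statin livers came from mice on chow with simvastatin for 4 weeks, at 0.1 g per kg of food in the study's methods and 0.1 g per kg of body weight in the sample labels. Each group held 3 livers, and no genotype beyond the strain is given for any of them.

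Long-chain fatty acids reach hepatocytes from the blood. Cd36 is a membrane receptor that speeds their uptake, and the Slc27a proteins take part in uptake and also join fatty acids to coenzyme A. Inside the cell Fabp proteins hold fatty acids in solution, and Acsl enzymes activate them for oxidation or for storage and membrane lipids. In liver, Fabp1 and Acsl1 are well-known targets of the nuclear receptor PPAR-alpha, which is switched on by fatty acids, whereas Acsl5 is usually linked to lipid synthesis.

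The sequence upstream of Fabp1 is shown because it holds the only match, among the 8 members with a window, to the kind of element that PPAR-alpha binds, and that of Slc27a1 because Slc27a1 was the gene whose change with statin passed the test. Start sites and sequences are from RefSeq on GRCm38.p6, in which 8 of the 10 genes matched with 11 start sites, and Slc27a5 and Fabp4 were not searched. The motif searched was AGGNCANAGGNCA, read on both strands (TGNCCTNTGNCCT on the other), in the 250 bases before each start. It was in 1 of the 11 member windows and in 0.338% of the 32851 windows of all genes. Capitals mark the match, which begins 67 bases before the Fabp1 start. Both stretches lie on the plus strand of GRCm38 upstream of the annotated gene and are written 5′ to 3′, Fabp1 at chr6:71199629-71199826 and Slc27a1, from the most upstream of its 3 start sites, at chr8:71568621-71568870. For Fabp1 the 52 bases between the gene start in GENCODE and that in RefSeq are left out of the print.
Fabp1: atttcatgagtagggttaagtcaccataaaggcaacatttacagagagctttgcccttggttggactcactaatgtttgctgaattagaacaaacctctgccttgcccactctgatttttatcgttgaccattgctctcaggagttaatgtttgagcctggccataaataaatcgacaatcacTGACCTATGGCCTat
Slc27a1: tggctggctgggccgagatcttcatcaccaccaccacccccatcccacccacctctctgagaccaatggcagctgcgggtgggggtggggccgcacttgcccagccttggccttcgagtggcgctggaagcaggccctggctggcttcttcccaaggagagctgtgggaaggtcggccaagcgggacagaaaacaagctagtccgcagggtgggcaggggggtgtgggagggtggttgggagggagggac
The Fabp1 window was 42.8% G and C and that of Slc27a1 66.4%, against a median of 52.4% over all windows. A match of letters is a description and says nothing of binding in these livers, and the lack of a match says only that these letters were not in the window searched.

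Per length of exon the 10 genes spanned a wide range, with Fabp1, the main fatty acid binding protein of hepatocytes, highest and Slc27a1 lowest in each of the 4 groups. In female chow Fabp1 was at 2405 ± 110 CPM per kb (SD, n = 3), where CPM is the count scaled to library size and TMM-normalized, here divided by exon length. Slc27a5, which also activates bile acids, followed at 388 ± 57.3 CPM per kb, then Acsl5 at 255 ± 43.5, Slc27a2 at 228 ± 52.6 and Acsl1 at 133 ± 22.2 CPM per kb in the same group. Cd36 was at 60.3 ± 11.7, Fabp2 at 50.8 ± 4.65, Fabp4 at 9.82 ± 1.30, Slc27a4 at 8.21 ± 1.42 and Slc27a1 at 1.77 ± 0.350 CPM per kb. In this order the livers of 3 neighbouring pairs overlapped, namely Acsl5 with Slc27a2, Cd36 with Fabp2, and Fabp4 with Slc27a4. The order changed between groups. In male chow Slc27a2 (547 ± 46.9 CPM per kb) stood above Slc27a5 (529 ± 27.4 CPM per kb), with overlapping livers, and Acsl1 (241 ± 22.5 CPM per kb) stood above Acsl5 (98.5 ± 9.42 CPM per kb), without overlap.

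**Figure D1:**
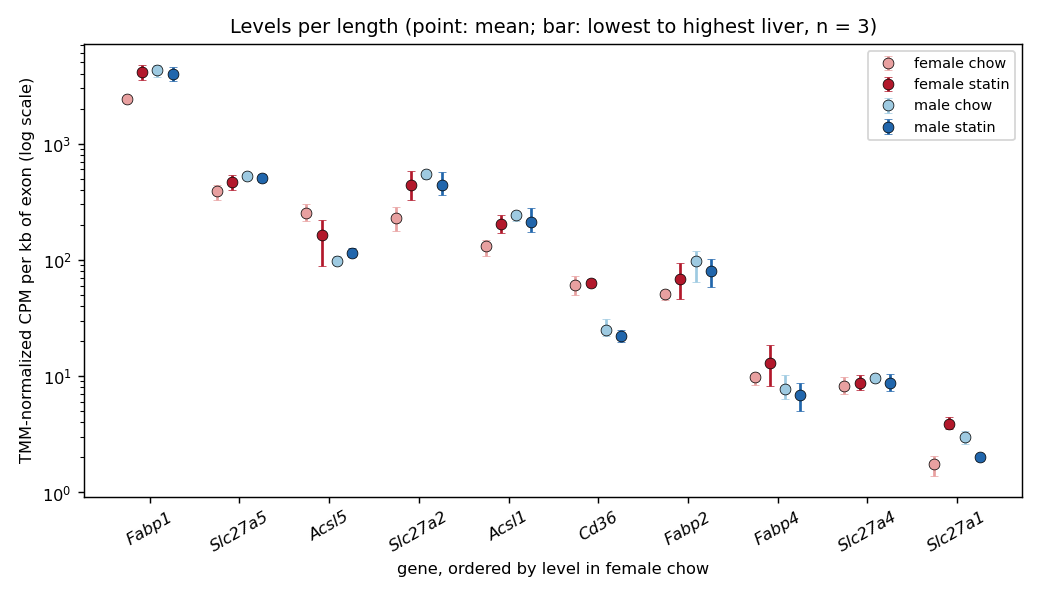
Mean level of each gene in each group in TMM-normalized CPM per kb of exon, on a log scale, with bars from the lowest to the highest of 3 livers; the genes are ordered by their level in female chow, from Fabp1 at 2405 to Slc27a1 at 1.77 CPM per kb.

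The deposited counts of a liver summed to between 46066381 and 60419223, above the average read depth stated in the study's methods. The reason for this difference was not tested. The members together held 0.454% to 0.735% of all reads in a liver. They ran from 202 reads for Slc27a1 in a female chow liver to 154116 for Fabp1 in a male chow liver. Markers of hepatocytes summed to between 87980 and 163200 CPM, so the labelled tissue was seen in each liver. Markers of enterocytes without Apob, which hepatocytes make, summed to at most 0.409 CPM, and those of skeletal muscle to at most 0.795 CPM. Of the 8 adipocyte markers, Adipoq, Plin1, Cfd, Lep and Retn summed to at most 2.53 CPM, and to at most 0.0537 CPM in females. Car3, Adrb3 and Cidec passed the filter on low counts. With them the 8 summed to 392 to 1235 CPM in female chow and 511 to 1709 CPM in female statin. In males the 8 summed to 1781 to 2631 CPM on chow and 861 to 1677 CPM on statin. Car3 made up nearly all of each sum, at 390 to 2625 CPM over the 12 livers. Adrb3 was at most 8.69 CPM and Cidec at most 4.89 CPM. Blood cell markers summed to between 146 and 260 CPM. All levels from here are TMM-normalized CPM, and all tests are two-sided tests of edgeR's quasi-likelihood model, fitted to all 12 livers and adjusted over 11968 genes. Positions are on GRCm38 with the GENCODE annotation, from gene start to gene end.

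With statin 1 of the 10 genes, Slc27a1, passed in females and was higher, a call that was lost in 9 of the 12 fits that left out 1 liver. At an unadjusted p under 0.05 the count was 5 members, with higher levels for Slc27a1, Slc27a2, Fabp1 and Acsl1 and lower levels for Acsl5. For comparison, 0.1% of all genes passed the adjusted threshold in females and 10.5% the unadjusted one. Members and lists were chosen with earlier results of these data known, so shares of all genes are given as background and not as a test. The 3 statin livers lay wholly above the 3 chow livers for 4 members, Slc27a1, Slc27a2, Fabp1 and Acsl1, where 12% of all genes were separated in either direction. The median log2 fold change of the members was 0.42, beside 0.01 over all genes. In females 9 of 10 fold changes were positive, beside 52.8% of all genes, and the exception was Acsl5.

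In males 0 of 10 members passed by edgeR, as for all genes (0%), and DESeq2 also gave 0 members (0.0334% of all genes). At an unadjusted p under 0.05 the count was 1 member, Slc27a1, lower on statin, beside 1.96% of all genes. Slc27a1 was also the member whose male statin and male chow livers did not overlap, beside 7.95% of all genes. The median log2 fold change of the members was -0.18 in males, beside 0.00 over all genes. The fold change of 9 of 10 was negative, again with Acsl5 as the exception, while 51% of all genes had a positive one. Each of the 10 members thus had fold changes of opposite sign in the sexes. The share of all genes with opposite signs was not counted. Only for Slc27a1 did the 95% intervals of both sexes leave out 0. The signs of Cd36 in both sexes, of Slc27a4 in females and of Fabp4 in males turned when 1 liver was left out.

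**Figure D2:**
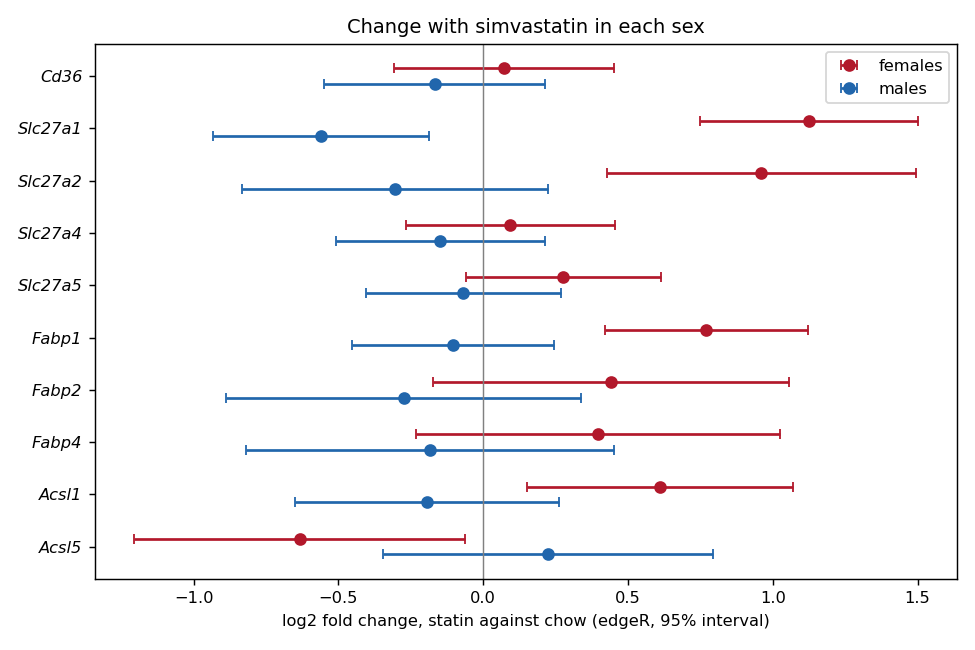
Log2 fold change with statin for each gene in females and males, points with 95% intervals from edgeR. In females 9 of 10 points lie above 0, beside 52.8% of all genes. In males 9 of 10 lie below 0, while 51% of all genes were above 0. In males only the interval of Slc27a1 leaves out 0.

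Whether females and males responded unlike each other was tested directly by the interaction of sex and statin. By edgeR 0 of 10 members passed (0% of all genes), and at an unadjusted p under 0.05 the count was 5 members beside 8.01% of all genes. These were Slc27a1, Slc27a2, Fabp1 and Acsl1, with a more positive change in females, and Acsl5, with a more negative one. Slc27a1 had the smallest interaction p of all 11968 genes (adjusted p = 0.0997, edgeR). DESeq2 called 3 members in females and 3 in the interaction, namely Slc27a1, Slc27a2 and Fabp1 in each, beside 2.26% of all genes in females and 1.13% in the interaction.

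On chow the sexes differed in 6 of 10 members, beside 10.4% of all genes. Cd36 and Acsl5 were higher in females, and Slc27a1, Slc27a2, Fabp1 and Acsl1 were lower. At an unadjusted p under 0.05 there were 8 members (24.9% of all genes), Slc27a5 and Fabp2 being added on the lower side, and the same 8 had livers that did not overlap between the sexes (37.7% of all genes). On statin 2 members differed between the sexes, Cd36 and Slc27a1, both higher in females, beside 6.28% of all genes. Fabp4 was added at an unadjusted p under 0.05 (19.4% of all genes), and the livers of Cd36 and Slc27a1 were the ones that did not overlap (19.6% of all genes). The comparison of the sexes on chow and that of statin with chow in females use the same 3 female chow livers, so their values are given side by side and not as separate evidence.

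**Figure D3:**
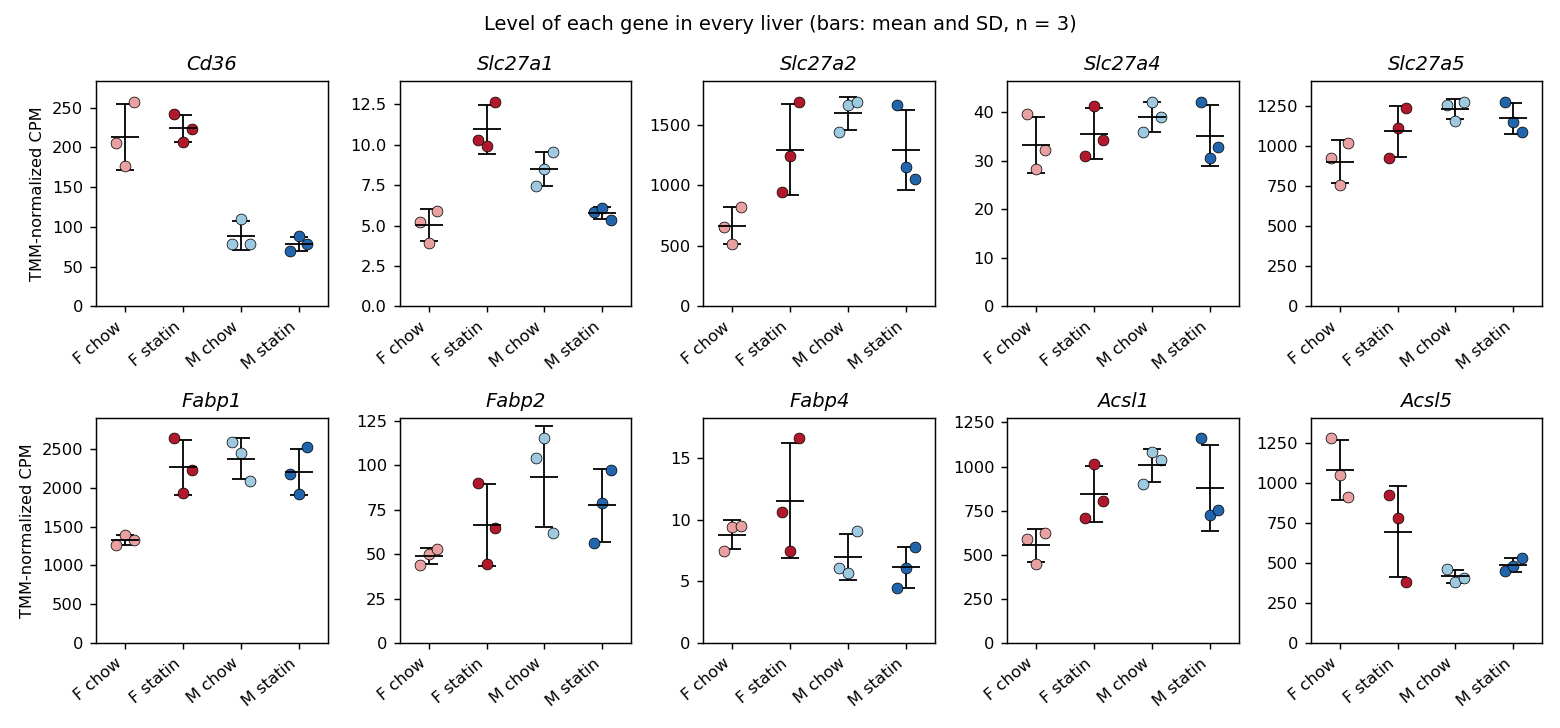
TMM-normalized CPM of each gene in every liver (F, female; M, male), with the mean and SD of 3 livers; the female chow livers lie below all 9 other livers for Slc27a2, Fabp1 and Acsl1, and Cd36 is higher in each female liver than in any male liver.

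Cd36 (chr5:17781690-17888801, minus strand), the receptor for fatty acid uptake, differed between the sexes on both diets and did not pass with statin in either sex. It was at 206, 176 and 258 CPM in the female chow livers and at 242, 207 and 223 CPM in female statin, and at 78.1, 110 and 78.2 CPM in male chow and 70.2, 87.8 and 78.7 CPM in male statin. Every female liver was above every male liver. Cd36 was higher in females by a log2 difference of 1.27 on chow (standard error 0.18, adjusted p = 0.000859, edgeR) and of 1.51 on statin (standard error 0.18, adjusted p = 0.000253, edgeR). With statin the log2 fold change was 0.07 in females (95% interval -0.31 to 0.45) and -0.17 in males (95% interval -0.55 to 0.21). Endothelial cells and macrophages also express Cd36, and in bulk tissue fewer cells of a type and less RNA per cell cannot be told apart. Of the 10 Kupffer cell and macrophage markers, 5 were higher in females on chow and 7 on statin by edgeR, beside 10.4% and 6.28% of all genes in either direction. Of the 10 endothelial markers 1 was higher on chow and 0 on statin. Of 6 stellate cell markers 3 were higher in females on chow and 1 on statin. At an unadjusted p under 0.05 there were 8 and 9 macrophage, 3 and 4 endothelial, and 5 and 3 stellate cell markers on chow and statin, beside 24.9% and 19.4% of all genes. The macrophage markers summed to between 694 and 825 CPM in female chow and between 352 and 556 CPM in male chow. The endothelial markers summed to between 393 and 422 CPM in female chow and between 261 and 354 CPM in male chow. On statin the macrophage sums were between 604 and 942 CPM in females and between 357 and 445 CPM in males, and the endothelial sums were between 319 and 479 CPM in females and between 267 and 374 CPM in males. The part of these cells in the difference of Cd36 between the sexes was not tested.

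Slc27a1 (chr8:71568882-71587302, plus strand), a transporter best known from muscle and fat, was the member that passed the test with statin. Its level was 5.24, 3.93 and 5.88 CPM in the female chow livers (replicates 1 to 3) and 10.3, 9.90 and 12.7 CPM in the female statin livers. Male chow livers were at 7.46, 8.47 and 9.54 CPM, and male statin livers at 5.86, 6.08 and 5.34 CPM. Statin livers were thus all above chow livers in females and all below them in males, a pattern seen in 75 of the 11968 genes, while 59 showed the reverse. In females Slc27a1 rose 2.18-fold, or by 1.13 on the log2 scale (standard error 0.17, adjusted p = 0.0382, edgeR). In males the log2 fold change was -0.56 (95% interval -0.93 to -0.19, adjusted p = 1, edgeR). The log2 difference between these responses was 1.69 (95% interval 1.16 to 2.21, adjusted p = 0.0997, edgeR), and it passed in edgeR with no filter (0.00137) and without female statin replicate 2 (0.0397). On chow Slc27a1 was lower in females than in males by a log2 difference of -0.76 (adjusted p = 0.0158, edgeR; 0.0553 without female chow replicate 2 and 0.0709 without male chow replicate 3), and on statin it was higher by 0.93 (adjusted p = 0.00735, edgeR). These levels rest on 202 to 639 reads per liver, in livers where markers of skeletal muscle summed to at most 0.795 CPM. Of the 3 adipocyte markers that could be tested, 0 passed with statin in either sex by edgeR. In females the log2 fold changes were 1.24 for Cidec (adjusted p = 0.448, edgeR), 0.97 for Adrb3 (0.449) and 0.43 for Car3 (0.886). In males the values of these 3 markers were -0.74, -0.04 and -0.99 (each adjusted p = 1, edgeR). The other 5 adipocyte markers, Adipoq, Plin1, Cfd, Lep and Retn, summed to at most 0.0537 CPM in the female livers. The part of adipocytes in the change of Slc27a1 was not tested. The call in females was lost without female statin replicate 3 (adjusted p = 0.141, edgeR), without female chow replicate 1 (0.144) or 2 (0.138), without any 1 of the 6 male livers (0.0593 to 0.0877), under a replicate block (0.0924) and with the females fitted alone (0.324), while the log2 fold change stayed between 0.98 and 1.26. DESeq2 gave an adjusted p of 1.36e-06 and limma 0.0360 for the same comparison.

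Slc27a2 (chr2:126552407-126588243, plus strand), an abundant hepatic transporter that also activates very long-chain fatty acids, was at 653, 517 and 823 CPM in the female chow livers and at 945, 1239 and 1691 CPM in female statin. The male livers were at 1439, 1661 and 1688 CPM on chow and at 1666, 1154 and 1054 CPM on statin. Female statin livers were above all female chow livers, and 2 of the 3 male statin livers were below all male chow livers. The log2 fold change was 0.96 in females (95% interval 0.43 to 1.49, adjusted p = 0.164, edgeR) and -0.31 in males (95% interval -0.83 to 0.22, adjusted p = 1, edgeR). The log2 difference between the responses was 1.26 (adjusted p = 0.312, edgeR). DESeq2 called the change in females (adjusted p = 0.00936) and the difference between the responses (adjusted p = 0.0383), and edgeR with no filter on low counts called the change in females (adjusted p = 0.0323). On chow Slc27a2 was lower in females than in males by a log2 difference of -1.27 (adjusted p = 0.00675, edgeR). On statin the difference was 0.00, with a 95% interval from -0.53 to 0.53. Slc27a2 overlaps Gm26697 on the other strand, which had at most 1.17 CPM.

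Slc27a5 and Slc27a4 did not pass with statin in either sex. Slc27a5 (chr7:12988346-12998192, minus strand), a liver transporter and bile acid ligase, was at 927, 759 and 1023 CPM in the female chow livers and at 926, 1113 and 1242 CPM in female statin, so the groups overlapped. The male livers lay between 1160 and 1279 CPM on chow and between 1090 and 1280 CPM on statin. Its log2 fold change was 0.28 in females (95% interval -0.06 to 0.61) and -0.07 in males (95% interval -0.41 to 0.27). On chow the female livers of Slc27a5 were all below the male ones, with a log2 difference of -0.45 (adjusted p = 0.0889, edgeR), which passed with library size alone (0.0429) and by DESeq2 (0.0243). Slc27a4 (chr2:29802634-29817522, plus strand), known for uptake in gut and skin, lay between 28.2 and 42.1 CPM in the 12 livers, and its log2 fold change was 0.09 in females (95% interval -0.27 to 0.45) and -0.15 in males (95% interval -0.51 to 0.21). Of the per-length level of the 4 Slc27a members, Slc27a5 made up 62.2 ± 1.92% in female chow and Slc27a2 36.2 ± 2.10% (SD, n = 3). In female statin these shares were 51.3 ± 3.52% and 47.4 ± 3.73% (SD, n = 3). They were 48.6 ± 2.85% and 50.2 ± 2.79% in male chow, and 53.1 ± 3.99% and 45.8 ± 4.01% in male statin (SD, n = 3).

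Fabp1 (chr6:71199827-71205023, plus strand), the liver fatty acid binding protein whose upstream window holds the motif printed above, was at 1269, 1390 and 1331 CPM in the female chow livers and at 2642, 1933 and 2230 CPM in female statin. Male chow livers were at 2595, 2449 and 2083 CPM and male statin livers at 2175, 1926 and 2522 CPM. The female chow livers were close to each other and below the 9 other livers. The log2 fold change in females was 0.77 (95% interval 0.42 to 1.12, adjusted p = 0.0994, edgeR), or 1.71-fold, and it did not pass by edgeR, whereas it passed by DESeq2 (adjusted p = 0.00031) and, by edgeR, without female statin replicate 2 (0.0488). In males the log2 fold change was -0.11 (95% interval -0.45 to 0.24), and the difference between the responses was 0.88 (95% interval 0.38 to 1.37, adjusted p = 0.305, edgeR; 0.0186, DESeq2). On chow Fabp1 was lower in females than in males by a log2 difference of -0.84 (adjusted p = 0.00618, edgeR), and on statin the log2 difference was 0.04 (95% interval -0.31 to 0.39).

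Fabp2 (chr3:122895072-122899506, plus strand), the intestinal binding protein, was at 44.0, 50.3 and 52.7 CPM in the female chow livers and at 90.3, 44.4 and 65.0 CPM in female statin. Male livers were at 104, 115 and 61.7 CPM on chow and at 56.1, 78.6 and 97.5 CPM on statin. The groups overlapped in both sexes, and the log2 fold changes were 0.44 (95% interval -0.17 to 1.06) in females and -0.27 (95% interval -0.89 to 0.34) in males. Without female statin replicate 1 the value in females was 0.16, and without replicate 2 it was 0.66. In males it was -0.09 without male statin replicate 1, -0.10 without male chow replicate 2, -0.47 without male statin replicate 3 and -0.50 without male chow replicate 3. On chow Fabp2 differed between the sexes by -0.93 on the log2 scale with no overlap (adjusted p = 0.0572, edgeR), and it passed in 8 alternatives, among them DESeq2 (0.0136) and a fit of only these 2 groups (0.0141). These levels stood beside enterocyte markers, without Apob, of at most 0.409 CPM in sum. The part of gut tissue in the level of Fabp2 was not tested. Fabp4 (chr3:10204088-10208576, minus strand), the binding protein of adipocytes, macrophages and small-vessel endothelium, was at 7.46, 9.44 and 9.49 CPM in the female chow livers and at 10.7, 7.44 and 16.6 CPM in female statin. It lay between 4.50 and 9.09 CPM in the male livers. The log2 fold change in females was 0.40 (95% interval -0.23 to 1.02), and 0.06 without female statin replicate 3, the liver with the highest level. In that liver the endothelial markers summed to 404 CPM, the Kupffer cell and macrophage markers to 604 CPM, the lowest sum of the 6 female livers, and the 5 adipocyte markers near 0 to 0 CPM, whereas Adrb3 (8.69 CPM) was at its highest of the 12 livers and Car3 (1699 CPM) at its highest of the 6 female livers, and Cidec (1.69 CPM) was at its lowest of the 3 female statin livers. The part of these markers in the level of Fabp4 was not tested. On statin Fabp4 differed between the sexes by 0.91 on the log2 scale (adjusted p = 0.0924, edgeR), and it passed by DESeq2 (0.0327), with no filter (0.0228), with the length correction (0.0444), under a replicate block (0.0439) and without female statin replicate 2 (0.0383). Without female statin replicate 3 the log2 difference fell to 0.56.

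Acsl1 (chr8:46471037-46536051, plus strand), the main acyl-CoA synthetase of hepatocytes and adipocytes, was at 589, 448 and 622 CPM in the female chow livers and at 710, 1016 and 807 CPM in female statin. The male livers were at 901, 1081 and 1039 CPM on chow and at 1161, 728 and 751 CPM on statin. Female statin livers were above all female chow livers, while male statin replicate 1 was above and replicates 2 and 3 were below all male chow livers. The log2 fold change was 0.61 in females (95% interval 0.15 to 1.07, adjusted p = 0.310, edgeR) and -0.19 in males (95% interval -0.65 to 0.26). Without male statin replicate 1 the log2 fold change in males was -0.45 for Acsl1, -0.53 for Slc27a2 and -0.30 for Slc27a4, each with an adjusted p of 0.73 by edgeR. It was nearer 0 without male statin replicate 2, at -0.07 for Acsl1, -0.23 for Slc27a2 and -0.06 for Slc27a4, and without male statin replicate 3, at -0.09, -0.18 and -0.10. On chow Acsl1 was lower in females than in males by a log2 difference of -0.86 (adjusted p = 0.0226, edgeR), a call lost under a replicate block (0.0519) and without female chow replicate 1 or 2 or male chow replicate 2 or 3 (0.0528 to 0.0880).

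Acsl5 (chr19:55251938-55297720, plus strand), the synthetase whose fold changes had signs opposite to those of the 9 other members, was at 1280, 1050 and 914 CPM in the female chow livers and at 927, 784 and 379 CPM in female statin. Male livers were at 462, 384 and 408 CPM on chow and at 447, 482 and 534 CPM on statin. Female statin replicate 3 was lower than every other female liver and lower than every male liver. The log2 fold change was -0.63 in females (95% interval -1.21 to -0.06, adjusted p = 0.412, edgeR) and 0.22 in males (95% interval -0.35 to 0.79), and without female statin replicate 3 it was -0.32 in females. On chow Acsl5 was higher in females than in males by a log2 difference of 1.37 (adjusted p = 0.00644, edgeR), and on statin the log2 difference was 0.51 (95% interval -0.06 to 1.08), with 0.25 without female statin replicate 1 and 0.81 without replicate 3 (adjusted p = 0.0187, edgeR). Taken per length, Acsl1 made up 34.4 ± 5.74% of the sum of Acsl1 and Acsl5 in female chow and 56.4 ± 12.3% in female statin, against 70.9 ± 3.96% in males on chow and 64.0 ± 7.46% in males on statin (SD, n = 3). Acsl5 overlaps Zdhhc6 on the other strand, which had between 50.8 and 80.3 CPM, and since the strand setting of the counting is not given in the sources used here, reads of the pair may not be fully told apart.

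**Figure D4:**
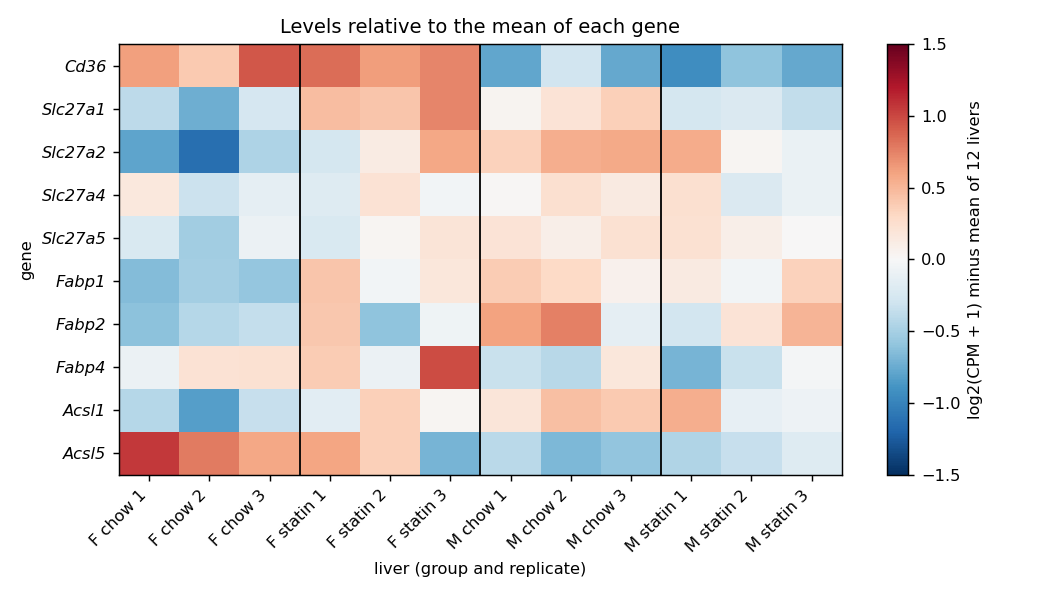
Level of each gene in each liver as log2(CPM + 1) minus the mean of that gene over 12 livers (F, female; M, male; red above and blue below the mean); Cd36 is above its mean in the 6 female livers and below it in the 6 male livers, and Slc27a2, Fabp1 and Acsl1 are below theirs in the 3 female chow livers.

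Over the 12 livers 3 members had an SD of at least 0.5 in log2(CPM + 1), and the genes most like each were found by the root mean square (RMS) difference of centred log2 levels. For Cd36 (SD 0.75) these were Car2 (RMS 0.172), Cfp (0.174) and Il18bp (0.215). For Acsl5 (SD 0.63) they were Gstm2 (RMS 0.168), Klf10 (0.215) and Tubb2a (0.219), and for Slc27a2 (SD 0.57) they were Vwa8 (RMS 0.156), Slc25a10 (0.159) and Abat (0.170). The measure mixes sex, diet and liver, and it is given as a description.

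Of 28 other genes of fatty acid uptake, binding and activation, 19 passed the filter on low counts, and the other 9, Slc27a3, Slc27a6, Fabp3, Fabp6, Fabp12, Acsl6, Acsbg1, Acsbg2 and Acss1, were under 1 CPM in every liver. With statin 0 of 19 passed in females (3 higher and 1 lower at an unadjusted p under 0.05, edgeR, beside 10.5% of all genes) and 0 of 19 in males (3 higher and 0 lower, beside 1.96%). The smallest p-values in females were those of Acbd4, an acyl-CoA binding protein (log2 fold change 0.40, adjusted p = 0.312, edgeR), Acss3, a short-chain acyl-CoA synthetase (0.45, adjusted p = 0.395), and Acsm5, a medium-chain synthetase (0.44, adjusted p = 0.448). The 1 lower gene in females was Acss2 (log2 fold change -1.14, adjusted p = 0.45, edgeR). In males the smallest p-values were those of Acsl4 (log2 fold change 0.43), Lipg, endothelial lipase (0.49), and Fabp5 (2.09), each with an adjusted p of 1 by edgeR. Fabp5, a binding protein near Fabp4 in sequence, was the most uneven of these genes, with 543, 586 and 254 CPM in the females on chow, 576, 258 and 48.7 CPM in those on statin, 38.0, 15.5 and 20.3 CPM in the males on chow and 13.8, 84.1 and 216 CPM in those on statin. In the interaction 0 of 19 passed, and the smallest p-values were those of Acss2, which activates acetate (log2 difference -2.12, adjusted p = 0.427, edgeR), Acsm5 (0.67, adjusted p = 0.536) and Lpl, lipoprotein lipase (0.79, adjusted p = 0.557). On chow 10 of 19 differed between the sexes, beside 10.4% of all genes. Higher in females were Fabp5 (log2 difference 4.23, adjusted p = 0.0174, edgeR), Acss2 (2.41), Acsl3 (0.72) and Acsl4 (0.58). Lower in females were Scp2, a sterol carrier that also binds fatty acyl-CoA (-1.25, adjusted p = 0.00545, edgeR), Acsm5 (-1.07), Lipc, hepatic lipase (-0.71), Acbd5 (-0.68), Acbd4 (-0.58) and Acsm3 (-0.55). On statin 2 of 19 differed (6.28% of all genes), Acss3 higher (1.02, adjusted p = 0.00598, edgeR) and Scp2 lower in females (-0.88, adjusted p = 0.0451).

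Of 15 transcriptional regulators of these genes, 15 were tested and 0 passed with statin in females (1 higher and 1 lower at an unadjusted p under 0.05, edgeR, beside 10.5% of all genes), 0 in males (0 higher and 1 lower, beside 1.96%) and 0 in the interaction (2 higher and 1 lower, beside 8.01%). In females the smallest p-values were those of Nr1i3, the receptor CAR (log2 fold change 1.21, adjusted p = 0.177, edgeR), Mlxipl, the carbohydrate response factor ChREBP (-0.59, adjusted p = 0.261), and Nr0b2, the corepressor SHP (-0.62, adjusted p = 0.531). In males they were Pparg, which drives Cd36 and Fabp4 in adipocytes and macrophages (-0.63), Mlxipl (-0.32) and Nr0b2 (0.45), each with an adjusted p of 1 by edgeR. The log2 difference between the responses was 1.54 for Nr1i3 (adjusted p = 0.347, edgeR), 1.05 for Pparg (0.462) and -1.07 for Nr0b2 (0.531). Ppara, which encodes PPAR-alpha, was at 184, 142 and 206 CPM in the female livers on chow and at 162, 297 and 252 CPM in those on statin, which overlap, and statin differed from chow by 0.42 on the log2 scale in females (adjusted p = 0.660, edgeR) and by -0.14 in males. Between the sexes 1 of 15 regulators differed on chow and 1 on statin, a share near or below that of all genes (10.4% and 6.28%). It was Nr0b2 in each case, lower in females by log2 differences of -1.05 (adjusted p = 0.0488, edgeR) and -2.11 (adjusted p = 0.0017, edgeR).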

How the data were processed

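RNA of 12 mouse livers, 3 in each of 4 groups taken from the sample labels, was sequenced by the authors from poly(A)-selected, strand-specific libraries. Per the labels and the study's methods, the authors aligned reads with STAR 2.4.1a to GRCm38, counted them per gene with HTSeq and normalized with edgeR 3.28.1. The deposited tables hold counts per gene for 11968 genes above 1 CPM in at least 6 livers, and CPM for 26304 genes. The deposited count table, named as TMM-normalized, held whole reads before normalization, since 100% of the reads recovered from the deposited CPM were whole within 0.01 and 0 differed from it. Per liver 46066381 to 60419223 counts were present.

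TMM-normalized counts were tested here in edgeR 4.0.16 (quasi-likelihood, R 4.3.3) with the 4 groups in 1 fit and no covariate, and p-values were adjusted by Benjamini-Hochberg over 11968 genes at 0.05. A standard error is the log2 fold change divided by the root of F. Alternatives were DESeq2 1.42.0, limma 3.58.1 on log2(CPM + 1) or log2(CPM + 0.1), other scalings, filters and sample sets, a replicate block, a correction for transcript length and each liver left out. Positions are from GENCODE on GRCm38.

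The members and lists were chosen with earlier results of these data known. All 10 members are named. Of the 2 other lists, the genes that passed are named or, where there were none, the 3 with the smallest p. Acss2 in females and Ppara are named besides. The likeness of patterns is given for members with an SD of at least 0.5.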

Additional observations from a re-analysis of the deposited data

Results flagged for a closer look

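For Slc27a1 the change with statin differed between the sexes, and this was tested as an interaction. The log2 fold change was 1.13 in females and -0.56 in males, a log2 difference of 1.685 (standard error 0.24, unadjusted p = 1.49e-05, adjusted p = 0.0997, edgeR), so the difference did not pass after adjustment over 11968 genes by edgeR, nor by limma (0.0774). It passed by DESeq2 (adjusted p = 6.65e-07) and, in edgeR, with no filter on low counts (0.00137) and without female statin replicate 2 (0.0397). All 3 female statin livers were above all 3 female chow livers, and all 3 male statin livers were below all 3 male chow livers. With 3 livers in each group, single livers were not tested as outliers.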

How the results depend on the processing

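In females on statin against chow, 12 genes and 1 member passed by edgeR, against 270 genes and 3 members by DESeq2, 148 and 2 with no filter on low counts, 5 and 0 with a mean of at least 10 CPM (which leaves out Slc27a1 and Fabp4), 0 and 0 with only the 2 groups compared, and 0 to 75 genes and 0 to 2 members when single livers were left out. In males 0 genes passed, against 4 by DESeq2. In the interaction 0 genes and 0 members passed, against 130 and 3 by DESeq2, 103 and 1 with no filter, and 0 to 14 genes and 0 to 1 member when single livers were left out. Between the sexes on chow 1250 genes passed, against 1946 by DESeq2, 771 with a mean of at least 10 CPM, 2151 with only the 2 groups and 635 to 1586 when single livers were left out. Between the sexes on statin 751 genes passed, against 1284 by DESeq2, 357 with a mean of at least 10 CPM (with 1 member in place of 2), 292 with only the 2 groups and 378 to 743 when single livers were left out. The cause of these differences was not tested.

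The replicate number was fitted as a block, although same-numbered livers came from different mice and their deviations did not go together (18 same-number pairs, mean r = -0.108, from -0.746 to 0.676). With the block 5 genes and 0 members passed in females, and the log2 fold change of Slc27a1 was 1.13 (adjusted p = 0.0924, edgeR). Between the sexes the block ended the call of Acsl1 on chow (adjusted p = 0.0519) and gave one for Fabp4 on statin (adjusted p = 0.0439), as did DESeq2, no filter, the length correction and leaving out female statin replicate 2.

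Signs turned where the log2 value was near 0. Between the sexes on statin, Slc27a2 (0.00) was -0.015 by DESeq2 and with DESeq2 size factors, -0.011 by limma with either pseudocount, -0.099 with library size alone, -0.032 with no filter, -0.027 with the block, -0.037 with the length correction, -0.006 without the 10 highest genes (chosen after seeing the data), -0.004 with only the 2 groups and -0.236 to 0.226 when single livers were left out. Slc27a4 (0.01) was -0.076 with library size alone, -0.013 with no filter, -0.015 with the length correction and -0.122 to 0.167 with livers left out. Fabp1 (0.04) was -0.047 with library size alone and -0.095 to 0.145 with livers left out, and Acsl1 (-0.06) was -0.227 to 0.191. With library size alone the median of all genes in this comparison was -0.104, beside -0.012 with TMM. With single livers left out, the statin fold change ranged from -0.043 to 0.236 in females and from -0.252 to 0.014 in males for Cd36, from -0.032 to 0.246 in females for Slc27a4 and from -0.392 to 0.052 in males for Fabp4. The other member values kept their sign. With 3 livers per group, small changes lay within the spread between livers.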
